A study of Mus musculus with 19 samples.

Results

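The genes described here are 9 components of epithelial tight junctions, namely the claudins Cldn3, Cldn4, Cldn6, Cldn7, Cldn1 and Cldn12, the strand protein Ocln, the adhesion protein F11r and the scaffold Tjp1. They were taken by name from the table of raw read counts, in which all 9 were found among 54179 genes, 21964 of them protein-coding. Tight junctions seal neighbouring epithelial cells below their apical surface. Claudins are membrane proteins that build the sealing strands and set which ions pass between cells, occludin (Ocln) lies in the same strands, JAM-A (F11r) is an immunoglobulin-type adhesion protein beside them, and ZO-1 (Tjp1) ties the strands to the actin cytoskeleton. In the thymus, CLDN3 and CLDN4 on the cell surface are known markers of medullary epithelial precursors.

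Thymic primordia were dissected from wild type C57BL/6 embryos at E10.5, when the third pharyngeal pouch is still an endodermal outpocketing, and at E12.5, when thymus and parathyroid are separate domains. Single EPCAM+PLET1+ cells were sorted into the wells of barcoded plates, for which the letters a to d named the E10.5 plates while a, c, d and e named those of E12.5. No treatment was given, so stage is the only contrast in the labels, and the sort admits only cells with both surface proteins. The labels do not say how many embryos or litters a plate holds, and p-values therefore measure the spread between plates, which may be partly technical.

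The cell filters stated in the study's methods were applied anew, and 711 of 733 wells remained, with 356 cells at E10.5 and 355 at E12.5. These numbers differ slightly from those the paper gives for each stage, so the cells kept are not exactly the same set. Plates held from 14981265 to 20106286 reads, and the median number of molecules per cell in the first sequencing run lay between 1305 in E10.5 plate a and 5175 in E10.5 plate c. Cells were split by marker transcripts that are not members, each counted as present at 100 CPM or more (CPM, reads scaled to 1000000 reads on protein-coding genes). At E10.5, 60 neural-like cells carried at least 3 of the 5 neuronal genes Tubb3, Nefl, Nefm, Neurod1 and Elavl3, and the other 296 are called endodermal. At E12.5, 42 parathyroid-like cells carried at least 2 of the 3 genes Gcm2, Pth and Chga, and the other 313 are called thymic. Of the thymic cells, 31 carried both Krt5 and Krt17, the keratins of medullary precursors, and are written Krt5+Krt17+, which leaves 282 other thymic cells.

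Further markers in the plate sums matched these classes in part. Foxn1, Pax1, Prss16, Ccl25 and Psmb11 summed to between 6951 and 7596 CPM in thymic cells and to between 314 and 1545 CPM in parathyroid-like cells. Epcam and Plet1 summed to between 804 and 970 CPM in endodermal cells but only to between 119.75 and 156 CPM in neural-like cells, which thus go against the sort. The pouch endoderm list (Pax9, Pax1, Foxa2, Epcam, Krt8 and Krt18), several genes of which thymic epithelium also expresses, summed to between 1184 and 1426 CPM in endodermal cells and to more in thymic cells, between 5902 and 6816 CPM. It thus does not mark the cells called endodermal, a name that stands only for E10.5 cells that are not neural-like. Mesenchymal markers summed to between 137 and 218 CPM in endodermal cells and to between 4.61 and 30.3 CPM in thymic cells, with Col3a1 at 0 in the former and Prrx1 at 0 in the latter. The neuronal genes were used to set cells apart at E10.5 only. They summed to between 397 and 605 CPM in endodermal cells and to between 574 and 811 CPM in thymic cells. The part of these other transcripts in the differences between stages was not tested.

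Cldn3 and Cldn4, on which the medullary question turns, are neighbours on mouse chromosome 5 (GRCm38, GENCODE vM21). Cldn3 lies at chr5:134986214-134987472 on the plus strand and Cldn4 at chr5:134945119-134946934 on the minus strand, with 39279 bases and no protein-coding gene between them. Cldn3 is overlapped by the antisense gene Wbscr25. The strand used in counting is not given in the sources used here. Whether reads of the overlap were counted for Cldn3, for Wbscr25 or for neither is therefore not known. The 250 bases before the RefSeq start of each gene (GRCm38.p6) are shown because both genes are followed through every comparison, at chr5:134985964-134986213 on the plus strand for Cldn3 and chr5:134946935-134947184 on the minus strand for Cldn4. Capitals mark GGGCGG or its reverse CCGCCC (the GC box) and CAGGTG or its reverse CACCTG (an E-box of the kind that Snail and Zeb repressors bind).
Cldn3: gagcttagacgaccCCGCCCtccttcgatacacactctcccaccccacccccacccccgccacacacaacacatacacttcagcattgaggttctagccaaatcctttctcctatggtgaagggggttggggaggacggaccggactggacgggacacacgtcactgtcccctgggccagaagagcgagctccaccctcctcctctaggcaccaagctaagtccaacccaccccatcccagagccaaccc
Cldn4: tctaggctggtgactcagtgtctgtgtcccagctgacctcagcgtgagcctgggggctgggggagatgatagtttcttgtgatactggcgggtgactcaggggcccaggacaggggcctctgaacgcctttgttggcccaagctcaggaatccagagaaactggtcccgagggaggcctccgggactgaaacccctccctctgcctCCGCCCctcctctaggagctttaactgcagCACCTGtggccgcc
The Cldn3 stretch held a single GC box, 236 bases before the start, and no E-box of these letters. The Cldn4 stretch held a GC box 44 bases before the start and the E-box letters 14 bases before it. In the 250 bases before the start of 32851 RefSeq promoters, 32.7% held the GC box, 17.2% the E-box letters, and 5.62% the letters AACCGG or CCGGTT of grainyhead-like sites, which neither stretch held. The bases were 60.8% G or C for Cldn3 and 62.0% for Cldn4. A match describes letters only, and whether a factor binds there was not measured.

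The first comparison asks how the members differ between the pouch at E10.5 and the primordium at E12.5. Cldn3 and Cldn6 fell and the other 7 members did not pass the test. Cldn3 stood at 88.7, 159, 138 and 151 CPM in E10.5 plates a to d in turn, and at 18.9, 42.1, 22.2 and 33.8 CPM in plates a, c, d and e of E12.5. All E12.5 plates lay below all E10.5 plates. The mean went from 134 ± 31.6 to 29.2 ± 10.7 CPM (SD, n = 4 plates per stage). This was 4.9-fold lower (log2 fold change −2.29 ± 0.38, SE), with adjusted p = 0.00397 in edgeR's quasi-likelihood test with Benjamini-Hochberg adjustment. Since reads were summed over the cells of a plate, fewer expressing cells and less RNA per cell cannot be told apart in these levels.

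Cldn6, a claudin of embryonic epithelia, moved the same way. Its level was 492, 492, 508 and 342 CPM in the E10.5 plates and 121, 189, 101 and 149 CPM in the E12.5 plates, again with no overlap. The log2 fold change was −1.77 ± 0.24, which is 3.41-fold lower, with adjusted p = 0.0013 in the same edgeR test. In this comparison 6.24% of the 11499 genes tested were called, 2.44% lower and 3.8% higher, beside 2 of 9 members lower and 0 higher. The median log2 fold change was −0.44 over the members and 0.0 over all genes tested.

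Cldn4 and Cldn7 overlapped between the stages when all cells were summed. Cldn4 was at 186, 79.3, 78.2 and 100.3 CPM in the E10.5 plates and at 45.1, 20.1, 61.3 and 173 CPM in the E12.5 plates, so that E12.5 plate e lay inside the E10.5 range. Its log2 fold change was −0.50 ± 0.59 (adjusted p = 0.747, edgeR). Cldn7 was at 147, 166, 170 and 215 CPM against 81.1, 146, 150 and 161 CPM, with a log2 fold change of −0.44 ± 0.32 (adjusted p = 0.537, edgeR).

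Removing the neural-like cells of E10.5 and the parathyroid-like cells of E12.5 gave larger fold changes between the stages for Cldn3, Cldn4, Cldn6 and Cldn7. In endodermal cells of E10.5 plates a to d, Cldn3 was at 83.5, 177, 160 and 171 CPM, and in thymic cells of plates a, c, d and e of E12.5 at 6.52, 11.05, 14.2 and 29.7 CPM. The ranges did not overlap, and Cldn3 fell 9.5-fold (log2 fold change −3.25 ± 0.55, adjusted p = 0.00572 in edgeR's quasi-likelihood test). Cldn6 went from 579, 572, 604 and 384 CPM in endodermal cells to 88.2, 116, 97.9 and 142 CPM in thymic cells. This was a 4.76-fold fall without overlap (log2 fold change −2.25 ± 0.26, adjusted p = 0.00042 in the same test). Of the 11172 genes tested here 5.25% were called, 1.93% lower and 3.31% higher, beside 2 of 9 members lower and 0 higher, and the median log2 fold change was −0.64 over the members and −0.01 over all genes.

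Cldn7 and Cldn4 in the same comparison were less certain. Cldn7 was at 179, 193, 210 and 237 CPM in endodermal and 54.1, 77.3, 114 and 142 CPM in thymic cells, so all thymic sums lay below all endodermal sums. Its log2 fold change of −1.07 ± 0.37 did not pass in edgeR (adjusted p = 0.148), although it passed on molecules (adjusted p = 0.00872) and with limma on the mean CPM per cell (adjusted p = 0.0458). Cldn4 was at 227, 91.1, 97.7 and 114 CPM in endodermal cells and at 34.6, 20.02, 44.1 and 166 CPM in thymic cells. Thymic cells of plates a, c and d lay below the endodermal range and those of plate e inside it. The log2 fold change of Cldn4 was −0.88 ± 0.63 (adjusted p = 0.563, edgeR), and without plate e it was −2.04 (adjusted p = 0.0269, edgeR).

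Of the members that are not claudins, none was called between the stages in the main test on reads. F11r was at 146, 129, 101 and 81.4 CPM in endodermal cells and at 33.5, 46.8, 84.4 and 115 CPM in thymic cells, with overlap and a log2 fold change of −0.64 ± 0.42 (adjusted p = 0.523, edgeR). On molecules of both runs in place of reads, F11r fell without overlap, from between 131 and 171 to between 64.9 and 91.97 per 1000000 molecules (log2 fold change −0.93, adjusted p = 0.0352, edgeR). Tjp1 was at 44.0, 39.8, 61.4 and 8.48 CPM in endodermal cells and at 26.8, 60.4, 8.25 and 12.3 CPM in thymic cells. The spread of Tjp1 within a stage was thus wider than the difference between the stages (log2 fold change −0.54 ± 0.66, adjusted p = 0.768, edgeR). Ocln never exceeded 8.07 CPM in an endodermal or thymic sum, and its log2 fold change was −0.09 ± 1.15 (adjusted p = 0.984, edgeR).

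Cldn1 and Cldn12 were the members with reads in the fewest thymic cells. Cldn1 lay between 0.988 and 2.48 CPM in the endodermal sums, and in thymic cells it reached 23.8 CPM in plate a but at most 0.186 CPM in the other plates. In plate a, 98.0% of the 343 Cldn1 reads of other thymic cells came from a single cell. Cldn12 ranged from 0.48 to 15.7 CPM in endodermal and from 0 to 25.5 CPM in thymic sums. Neither was called between the stages (adjusted p = 0.752 for Cldn1 and 0.85 for Cldn12 in the comparison of thymic with endodermal cells, edgeR).

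**Figure D1:**
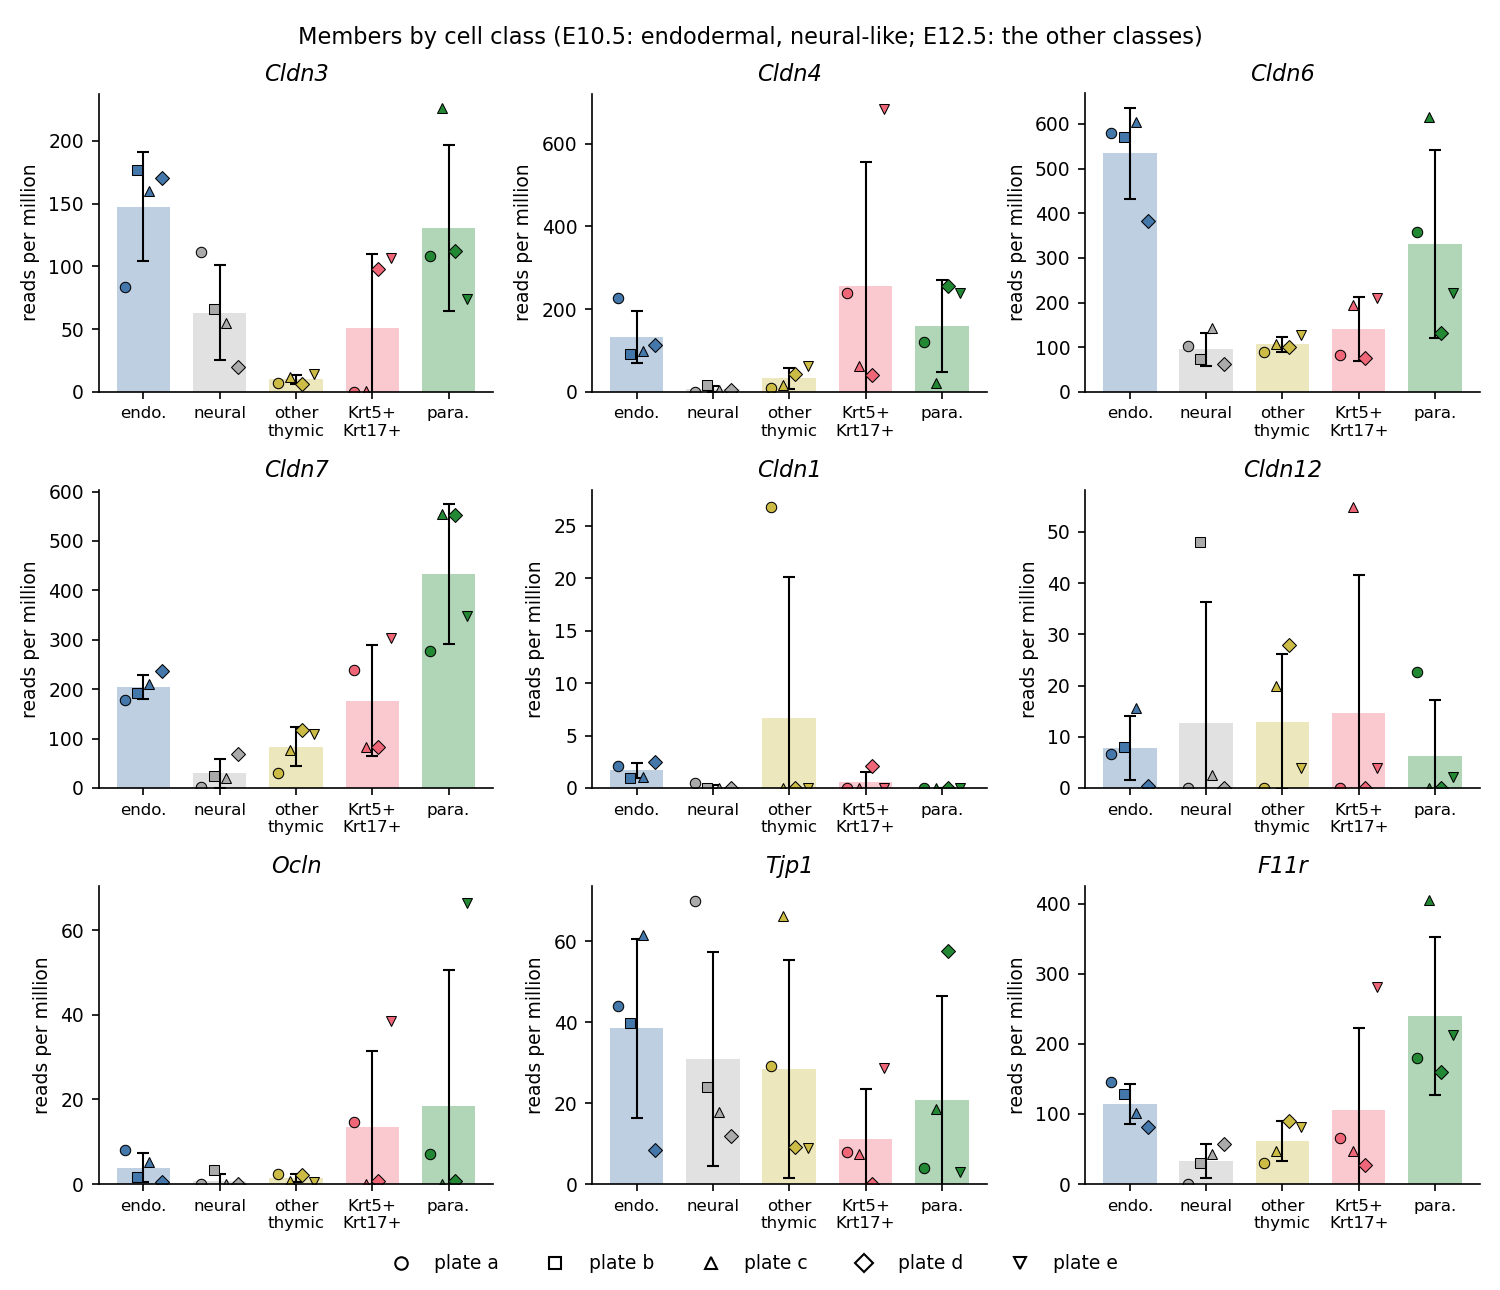
CPM of each member in the summed cells of every class and plate, with symbols for plates, bars for the mean and error bars for the SD over 4 plates. Cldn3 and Cldn6 have their highest mean in endodermal cells and Cldn7 and F11r in parathyroid-like cells, while Cldn4 in Krt5+Krt17+ cells spreads from 41.1 to 685.

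Across the 5 classes, the members followed different orders of mean level. Cldn3 was highest in endodermal cells (148 ± 43.4 CPM, SD over 4 plates, as for all means that follow), then in parathyroid-like (130 ± 66.1), neural-like (63.2 ± 37.9), Krt5+Krt17+ (51.2 ± 58.8) and other thymic cells (9.95 ± 3.88), and the plates of each class overlapped with those of the next. Cldn4 was highest in Krt5+Krt17+ cells (257 ± 299), then parathyroid-like (160 ± 111) and endodermal cells (133 ± 63.8), and then other thymic (32.5 ± 24.8) and neural-like cells (6.62 ± 7.27). For Cldn4 only the step from endodermal to other thymic cells was without overlap. Cldn6 was ordered endodermal (535 ± 102), parathyroid-like (332 ± 211), Krt5+Krt17+ (140 ± 71.2), other thymic (106 ± 16.6) and neural-like (94.99 ± 36.2), with overlap at every step.

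Cldn7 and F11r shared an order that began with parathyroid-like cells. Cldn7 had 433 ± 142 CPM there, 204 ± 24.9 in endodermal, 177 ± 112 in Krt5+Krt17+, 83.6 ± 39.5 in other thymic and 29.3 ± 28.4 in neural-like cells. F11r had 239 ± 113 CPM in parathyroid-like, 114 ± 28.7 in endodermal, 105 ± 118 in Krt5+Krt17+, 61.8 ± 28.5 in other thymic and 32.7 ± 24.3 in neural-like cells. For both genes the parathyroid-like plates lay above the endodermal plates, and every later step overlapped. No test was made of these orders.

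The share of cells in which a member was found also differed by class. A molecule of Cldn6 was found in 239 of 296 endodermal cells (80.7%, exact binomial 95% interval 75.8% to 85.1%) and in 108 of 313 thymic cells (34.5%, 29.3% to 40.1%). Cldn3 was found in 118 endodermal cells (39.9%, 34.2% to 45.7%) and 16 thymic cells (5.11%, 2.95% to 8.17%). Plate e held 11 of these 16, and without it the thymic share was 5 of 232 (2.16%, 0.703% to 4.96%). For Cldn4 these were 140 endodermal cells (47.3%, 41.5% to 53.2%) and 41 thymic cells (13.1%, 9.57% to 17.4%). The intervals of the classes did not overlap for any of the 3 genes, and they cover counting error only, with all plates of a stage pooled.

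Depth differed between the classes. In the first run the median cell had 3802 molecules among endodermal, 3131 among other thymic, 3878 among Krt5+Krt17+, 2296 among parathyroid-like and 4265 among neural-like cells. With each cell thinned to 1000 molecules, for which 275 of 296 endodermal and 309 of 313 thymic cells were deep enough, Cldn6 was found in 51.0% of endodermal and 15.5% of thymic cells, Cldn3 in 15.2% and 1.64%, and Cldn4 in 18.3% and 5.80%. The direction of all 3 was thus kept at equal depth.

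Neural-like cells, which had few Epcam and Plet1 reads, were set beside the thymic classes for the shares, although they come from E10.5 plates and nothing shows that they lack these transcripts. Among 60 neural-like cells a Cldn3 molecule was found in 9 (15%, 7.10% to 26.6%), Cldn4 in 3 (5%, 1.04% to 13.9%), Cldn6 in 18 (30%, 18.9% to 43.2%) and Cldn7 in 7 (11.7%, 4.82% to 22.6%). The Cldn3 share of other thymic cells, 9 of 282 (3.19%, 1.47% to 5.97%), was below that of the neural-like cells, and it was 1.90% without plate e. The Cldn6 and Cldn7 shares of other thymic cells, 31.2% and 15.2%, lay within the intervals of the neural-like cells, which were deeper, and at 1000 molecules per cell they were 14.3% and 5.47% against 9.70% and 3.23%. In Krt5+Krt17+ cells Cldn4 and Cldn7, at 14 of 31 each (45.2%, 27.3% to 63.97%), and Cldn6, at 20 of 31 (64.5%, 45.4% to 80.8%), had intervals above those of the neural-like cells. The interval of Cldn3, at 7 of 31 (22.6%, 9.59% to 41.1%), overlapped with theirs. Plate e gave 8 of the 14 cells for both Cldn4 and Cldn7. Without it, a setting chosen after the data had been seen, Cldn4 and Cldn7 were found in 6 of 21 cells each (28.6%, 11.3% to 52.2%), Cldn6 in 11 (52.4%, 29.8% to 74.3%) and Cldn3 in 1 (4.76%), and all 4 intervals overlapped with those of the neural-like cells. Without E10.5 plate d, the Cldn7 share of neural-like cells was 6.38%.

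**Figure D2:**
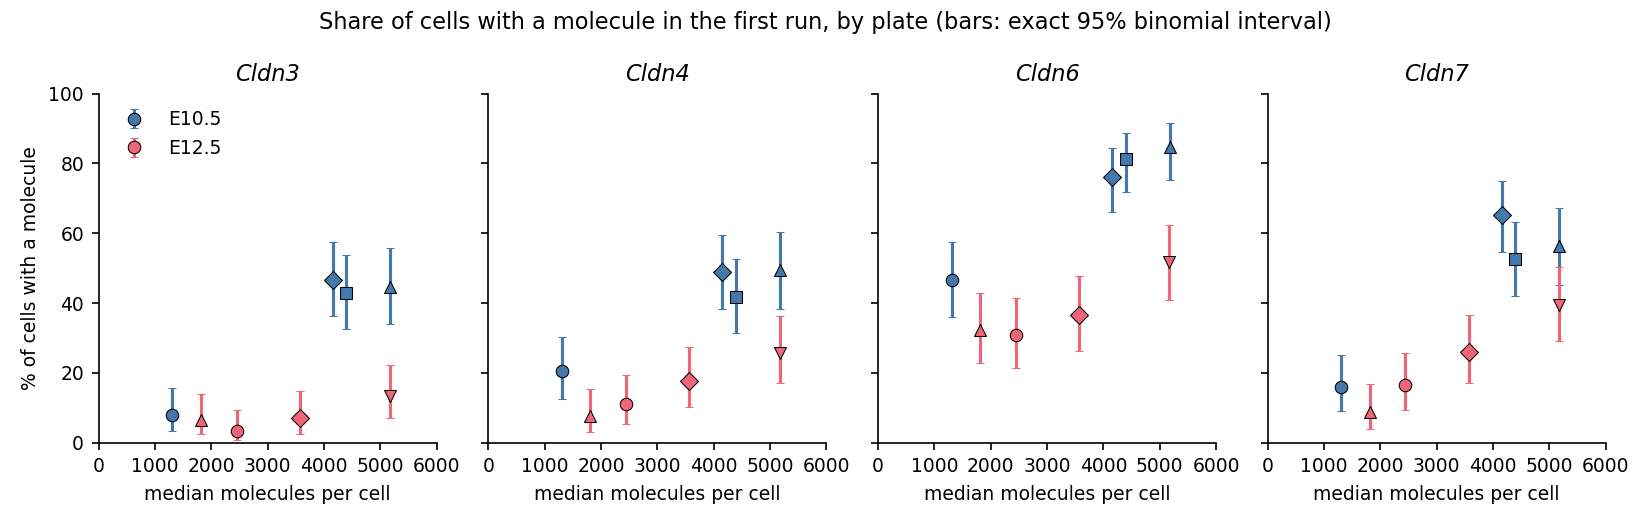
Share of cells with a molecule in the first run, by plate, against the median number of molecules per cell of that plate, with exact 95% binomial intervals. E10.5 plate a, with 1305 molecules, has a Cldn3 share of 7.96%, near the E12.5 plates, while E10.5 plates b, c and d lie from 42.9% to 46.7%.

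The shallowest E10.5 plate had the lowest share of cells with Cldn3 and Cldn4 before thinning, and at equal depth this held for Cldn3 only. Cldn3 was found in 7.96% of the cells of E10.5 plate a and in 42.9%, 44.7% and 46.7% of plates b, c and d, whereas plate a was shallow (1305 against 4395, 5175 and 4150.5 molecules). At E12.5 the Cldn3 share was 3.30%, 6.67%, 7.06% and 13.5% in plates a, c, d and e, with medians of 2446, 1813, 3566 and 5169 molecules, so the shallowest plate c did not have the lowest share. The Cldn4 share was 20.5%, 41.8%, 49.4% and 48.9% in E10.5 plates a to d and 10.99%, 7.78%, 17.6% and 25.8% in plates a, c, d and e of E12.5. At 1000 molecules per cell Cldn4 was found in 17.3%, 12.0%, 15.9% and 16.9% of the cells of E10.5 plates a to d, so that plate a was no longer lowest, and in at most 11.4% in an E12.5 plate. Cldn3 stayed lowest in plate a among the E10.5 plates, at 5.03% against 14.8% to 15.5%. In plate a at E10.5 a single endodermal cell gave 60.8% of the 859 Cldn3 reads, while no endodermal cell of the other plates gave more than 8.64%.

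The next comparison asks whether the members differ in Krt5+Krt17+ cells, the thymic cells with the keratins of medullary precursors. No member was called, and Cldn4 had the smallest p. Cldn4 was at 239, 61.5, 41.1 and 685 CPM in the Krt5+Krt17+ cells of plates a, c, d and e and at 8.59, 15.5, 44.4 and 61.6 CPM in the other thymic cells of the same plates. Krt5+Krt17+ cells were higher in plates a, c and e and about equal in plate d, and the ranges overlapped. The log2 fold change was 3.09 ± 1.03 (8.52-fold), with an unadjusted p of 0.0122 and an adjusted p of 0.294 in edgeR. Over the alternative settings the adjusted p lay between 0.0573 with DESeq2 and 0.601 without plate e, where the log2 fold change was 2.24.

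Cldn3 in the same cells rested on few cells. It was at 0, 0.819, 97.6 and 106 CPM in the Krt5+Krt17+ cells of plates a, c, d and e and at 7.34, 12.2, 6.06 and 14.2 CPM in the other thymic cells. Plates d and e were higher in Krt5+Krt17+ cells, and plates a and c were lower. The lower plates also rested on single cells, since 1 other thymic cell gave 96.8% of 94 reads in plate a. In plate c, 1 other thymic cell gave 97.1% of 137 reads. In plate d all 140 reads came from 1 of 6 cells, whereas in plate e 6 of 10 cells reached 100 CPM. The log2 fold change was 2.58 ± 1.61 (adjusted p = 0.929, edgeR), and it was −0.08 with the plate as a replicate block and −0.02 with limma on mean CPM per cell.

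For the other members the values were of similar uncertainty. Cldn7 was at 239, 82.8, 82.9 and 303 CPM in Krt5+Krt17+ cells and at 30.6, 76.7, 117 and 110 CPM in other thymic cells (log2 fold change 1.15 ± 0.68, adjusted p = 0.891, edgeR). In plates c and d, 1 Krt5+Krt17+ cell gave 86.1% and 90.8% of the Cldn7 reads of its class. In other thymic cells of plate c, 1 cell gave 66.2%. F11r reached 281 CPM in Krt5+Krt17+ cells of plate e and 27.9 to 65.8 CPM in the other plates, against 29.5 to 89.9 CPM in other thymic cells. Ocln was at 14.8, 0, 0.697 and 38.5 CPM against 2.27, 0.71, 2.18 and 0.426 CPM (log2 fold change 3.51 ± 1.67, adjusted p = 0.731, edgeR). Of the 38.5 CPM in plate e, 1 cell gave 87.9% of the reads. Cldn6, Cldn12, Tjp1 and F11r had log2 fold changes of 0.45, −0.03, −1.13 and 0.92, and Cldn1 did not pass the filter on low counts.

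Among the 9474 genes tested in this comparison edgeR called 1, Krt17 itself, which is 0.0106%, and 712 had an unadjusted p under 0.05, beside 0 of the 8 members tested and 1 (Cldn4) at the unadjusted threshold. Krt5, which also defines the class, was not called (log2 fold change 3.75 ± 0.53, adjusted p = 0.102, edgeR). The lack of a call here thus does not show that a gene was alike in both groups. DESeq2 called 571 genes and limma 338, and neither called a member. The median log2 fold change was 1.03 over the members and −0.15 over all genes. Krt5+Krt17+ cells were also deeper than other thymic cells, with a median of 214789 against 168510 reads per cell, and the part of depth in these differences was not tested. A Krt5 and Krt17 threshold of 30 CPM gave 38 cells and one of 300 CPM gave 21, and no member was called with either.

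**Figure D3:**
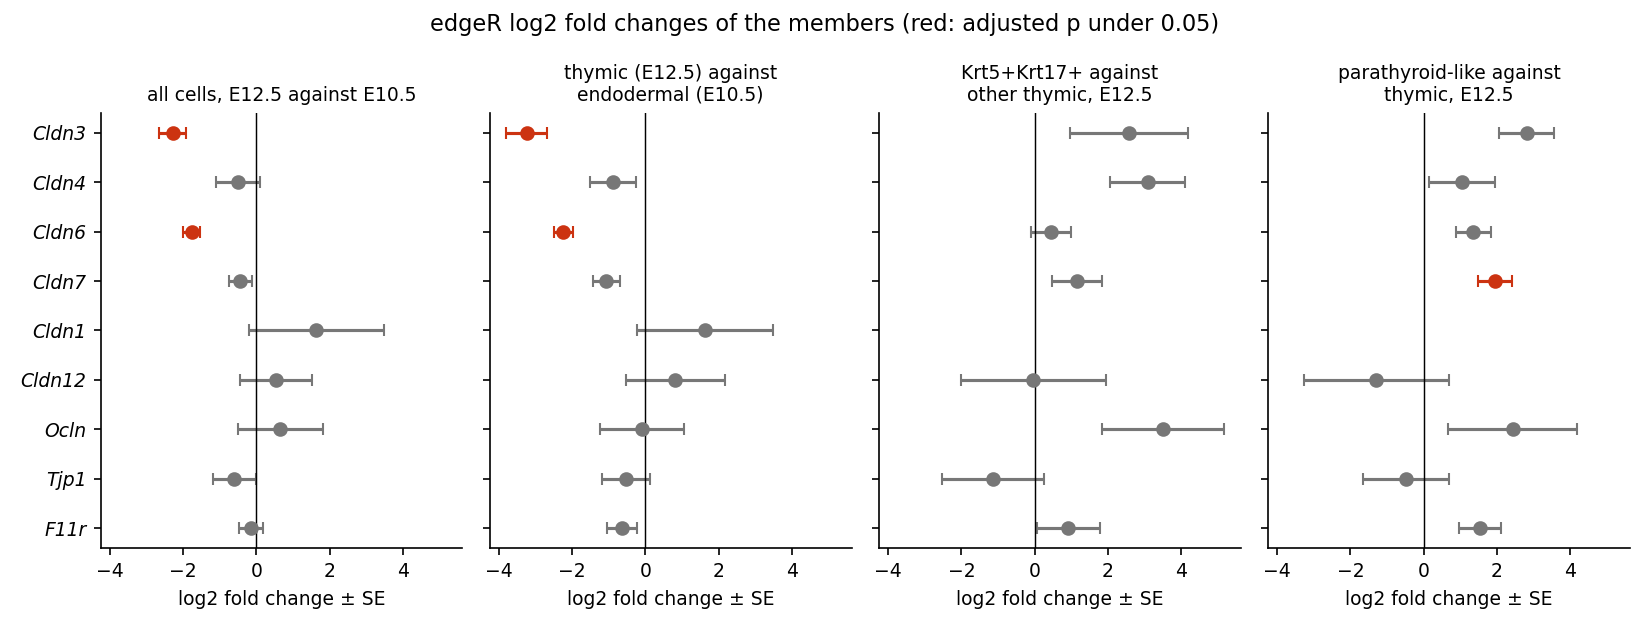
Log2 fold changes of the 9 members with their standard errors in the comparisons fitted with edgeR, with members at an adjusted p under 0.05 in red. Cldn3 and Cldn6 lie to the left in both stage comparisons, and Cldn7 lies to the right in parathyroid-like cells.

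Since Cldn3 and Cldn4 together mark medullary precursors, their co-expression was examined cell by cell at E12.5. Both reached 100 CPM in 12 of 313 thymic cells (3.83%), of which 1 was in plate c, 3 were in plate d and 8 in plate e. Krt5 reached 100 CPM in 8 of these 12 cells and Krt17 in 6, beside 90 and 25 of the 272 thymic cells with neither claudin. Of the 31 Krt5+Krt17+ cells, 6 held both claudins (19.4%), 6 Cldn4 alone and 1 Cldn3 alone, so that 18 held neither. Of the 282 other thymic cells, 6 held both (2.13%), 19 Cldn4 alone and 3 Cldn3 alone. The cells with both claudins were thus equal in number in the keratin class and the rest, but a larger share of the keratin class (19.4% against 2.13%). None lay in plate a.

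Plate e carried most of this pattern. Of its 10 Krt5+Krt17+ cells, 5 held both claudins, whereas plates a, c and d had 8, 7 and 6 Krt5+Krt17+ cells, of which 1, in plate d, held both. In plate e the cell with the most Cldn4 (3006 CPM) gave 45.9% of the Cldn4 reads of the Krt5+Krt17+ cells. Plate e was also the deepest E12.5 plate, with a median of 5169 molecules per cell against 1813 to 3566 in the other E12.5 plates. The part of depth in the number of such cells was not tested.

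**Figure D4:**
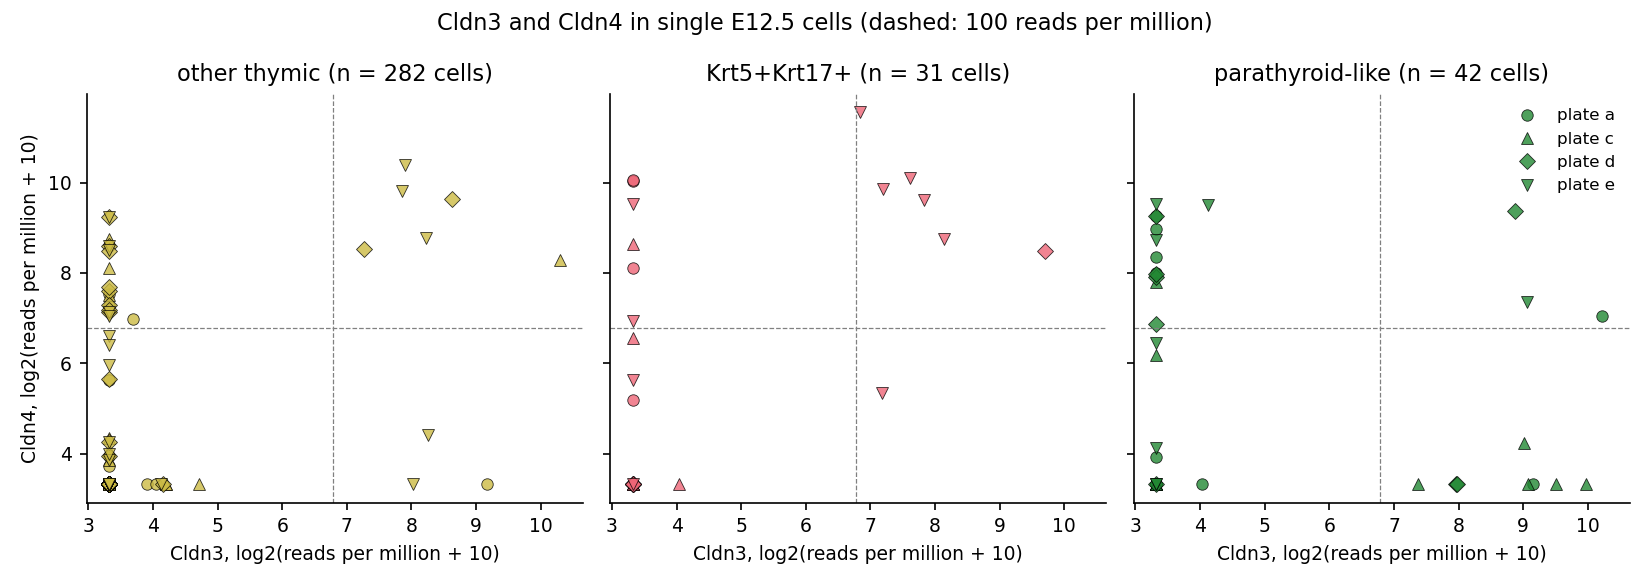
Cldn3 against Cldn4 in single E12.5 cells as log2(CPM + 10), by class, with symbols for plates and dashed lines at 100 CPM. Cells beyond both lines number 6 among Krt5+Krt17+, 6 among other thymic and 3 among parathyroid-like cells.

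Most parathyroid-like cells with either claudin lacked the other. Of 42 cells, 3 held both Cldn3 and Cldn4 at 100 CPM, 8 held Cldn3 alone and 12 Cldn4 alone. Among thymic cells 12 held both, 4 Cldn3 alone and 25 Cldn4 alone. Most cells with Cldn3 thus lacked Cldn4 in the parathyroid-like class and held it in thymic cells, where plate e gave 8 of the 12. In endodermal cells at E10.5 both were held by 45 of 296 (15.2%), with 62 for Cldn3 alone and 53 for Cldn4 alone. Cells with both claudins were found in every E10.5 plate, with 3, 10, 16 and 16 cells in plates a, b, c and d.

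By molecules of both runs, 13 thymic cells had Cldn3 and Cldn4, 3 had Cldn3 only, 32 had Cldn4 only and 265 had neither. Most thymic cells with Cldn3 thus also had Cldn4. Most with Cldn4 had no Cldn3, which follows from the counts, since far fewer thymic cells had Cldn3 than Cldn4. The median cell with both had 5099 molecules and the median cell with neither 3032. In endodermal cells 82 had both, 39 Cldn3 only, 64 Cldn4 only and 111 neither. Independent detection over the pooled cells would give 2.3 thymic and 59.7 endodermal cells with both. These figures take no account of plate or depth.

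The correlation of members across cells was computed within each E12.5 plate on log2(CPM + 10) and averaged over the 4 plates, as a description of cells that share a library and differ in depth. Over 355 cells the highest value was that of Cldn6 and Cldn7, with a mean Spearman correlation of 0.387 (0.268 to 0.543 by plate), followed by Cldn3 and Cldn6 at 0.318 and Cldn4 and Cldn7 at 0.288. Cldn3 and Cldn4 had 0.255 (0.073 to 0.554). With cells thinned to 1000 molecules the pairs had 0.221, 0.067, 0.106 and 0.210 in this order. All 4 of these values were lower. The thinned values use molecules of the first run in cells with at least 1000 of them. Measure and sparsity thus changed along with depth, and the fall does not show an effect of depth alone.

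Within the 313 thymic cells, Cldn3 and Cldn4 had a mean correlation of 0.279 (0.077 to 0.562 by plate), and 0.275 after thinning. Cldn4 had 0.287 with Krt17 and 0.242 with Krt5, and 0.134 and 0.196 on thinned molecules. Cldn3 had 0.146 with Krt17 and 0.088 with Krt5, and after thinning both were below 0 (−0.033 and −0.075). In sparse counts such weak values describe the plates and do not order the pairs.

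The genes whose pattern over thymic cells was most like that of Cldn4, among 5209 genes read in at least 10% of the thymic cells of each plate, included Cd9 (0.358), Rhov (0.331), Notch3 (0.307) and Wfdc2 (0.306). Cd9 encodes a tetraspanin and Notch3 a Notch receptor. For Cldn3 they were Kcnk1 (0.256), Notch3 (0.239), Cmtm3 (0.220), Rock1 (0.220) and Ubl3 (0.211). Notch3 was on both lists, with 0.094 to 0.460 by plate for Cldn4 and 0.033 to 0.388 for Cldn3. Lower plates of several of these genes were near 0, as for Kcnk1 at 0.020.

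Counted per cell, endodermal and parathyroid-like cells carried the most members. Endodermal cells held a mean of 2.45 members at 100 CPM or more, parathyroid-like cells 2.38, Krt5+Krt17+ cells 2, other thymic cells 0.77 and neural-like cells 0.683. No member reached 100 CPM in 7.77% of endodermal, 4.76% of parathyroid-like, 29% of Krt5+Krt17+, 50.7% of other thymic and 51.7% of neural-like cells. At least 3 members did so in 47% of endodermal and 47.6% of parathyroid-like cells but in 7.09% of other thymic cells. These counts pool the plates and are given without a test.

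The last comparison at E12.5 sets the parathyroid-like cells against the thymic cells of the same plates. Cldn7 was higher in parathyroid-like cells, and Cldn3, Cldn6 and F11r had positive fold changes that did not pass the main test. Cldn7 was at 277, 554, 553 and 348 CPM in parathyroid-like cells of plates a, c, d and e and at 54.1, 77.3, 114 and 142 CPM in thymic cells. All parathyroid-like sums lay above all thymic sums. In thymic cells of plate c, 1 cell gave 59.3% of the Cldn7 reads, and in parathyroid-like cells 1 cell gave at most 50.3% in a plate. The log2 fold change was 1.95 ± 0.46 (3.85-fold, adjusted p = 0.0481, edgeR). The call was lost when any of the 4 plates was left out (adjusted p from 0.0887 to 0.147) when markers counted as present at 30 CPM (adjusted p = 0.115) and with no filter on low counts (adjusted p = 0.0712).

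Cldn3 was at 109, 226, 113 and 74.4 CPM in parathyroid-like cells of plates a, c, d and e and at 6.52, 11.05, 14.2 and 29.7 CPM in thymic cells. The ranges did not overlap, and the log2 fold change of 2.81 ± 0.76 (7.03-fold) missed the threshold in edgeR (adjusted p = 0.0615) and passed it with DESeq2 (adjusted p = 0.00036), on molecules (0.00816) and with limma on mean CPM (0.0169). Several of these Cldn3 sums rested on single cells. The cell with the most Cldn3 gave 67.1%, 43.6%, 51.25% and 99.0% of the reads in parathyroid-like cells of plates a, c, d and e. In thymic cells of the same plates it gave 96.8%, 96.4%, 61.1% and 13.1%. F11r was at 180, 405, 160 and 213 CPM in parathyroid-like cells, above all thymic sums of 33.5 to 115 CPM, with a log2 fold change of 1.54 ± 0.57 (adjusted p = 0.208, edgeR). It passed on molecules (adjusted p = 0.00314) and with limma (0.0431). Cldn6 was at 358, 616, 133 and 222 CPM in parathyroid-like cells and overlapped with thymic cells in plate d (log2 fold change 1.36 ± 0.48, adjusted p = 0.185, edgeR), and it passed on molecules (0.0126).

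Cldn4 was at 122, 20.4, 257 and 240 CPM in parathyroid-like cells and overlapped widely with the thymic range of 20.02 to 166 CPM (log2 fold change 1.05 ± 0.91, adjusted p = 0.749, edgeR). Ocln reached 66.5 CPM in plate e, where a single cell gave 100% of its reads, and at most 7.04 CPM in the other plates. Cldn1 had 0 reads in the parathyroid-like cells of every plate, and no molecule in 42 cells, which allows up to 7.14% of cells with a molecule at this depth and sets no limit on cells that express it. Tjp1 and Cldn12 had log2 fold changes of −0.48 ± 1.17 and −1.30 ± 1.98, neither called. Of the 9880 genes tested, 4.33% were called, 1.27% higher and 3.07% lower, beside 1 of the 8 members tested higher and 0 lower, and the median log2 fold change was 1.45 over the members and −0.19 over all genes.

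The cells with a molecule followed the levels. Cldn7 was found in 23 of 42 parathyroid-like cells (54.8%, 38.7% to 70.2%) and in 57 of 313 thymic cells (18.2%, 14.1% to 22.9%), and at 1000 molecules per cell in 30.1% and 6.67%. F11r was found in 21 parathyroid-like cells (50%, 34.2% to 65.8%) and 78 thymic cells (24.9%, 20.2% to 30.1%). For Cldn3 the shares were 26.2% (13.9% to 42.0%) and 5.11%. The shares were higher although parathyroid-like cells were the shallowest class, with a median of 2296 molecules against 3131 in other thymic cells.

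Parathyroid-like cells were also set against the endodermal cells of E10.5, a comparison chosen after the data had been seen, which shares its samples with those above. No member was called among 8 tested, by edgeR, DESeq2 or limma, while 2 (Cldn7 and F11r) had an unadjusted p under 0.05 and edgeR called 5.13% of 9548 genes, 1.36% higher and 3.77% lower. Cldn3 had a log2 fold change of −0.35 ± 0.51 (adjusted p = 0.857) and Cldn6 of −0.81 ± 0.42 (adjusted p = 0.459). Cldn7 had 0.94 ± 0.35 (adjusted p = 0.221), and its parathyroid-like sums of 277 to 554 CPM lay above its endodermal sums of 179 to 237 CPM. F11r likewise had no overlap, with 0.96 ± 0.43 (adjusted p = 0.354). A p above the threshold does not show that these levels were equal.

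Other genes of the tight junction, a list of 48 further claudins, adhesion proteins, scaffolds and polarity proteins, are given by their counts. Between the stages in all cells, 34 were tested, 1 was called higher and 2 lower, beside 6.24% of all genes called, and their median log2 fold change was −0.22. Cldn9, which lies 137 bases from Cldn6 at chr17:23682584-23684026 on the minus strand, was at 95.8, 103, 113 and 132 CPM in the E10.5 plates and at 15.8, 0.274, 24.6 and 10.2 CPM in the E12.5 plates. It fell 9.13-fold without overlap (log2 fold change −3.19 ± 0.84, adjusted p = 0.0477, edgeR), as its neighbour Cldn6 did. Both are closely related claudins, and how reads matching both were counted is not given in the sources used here. The scaffold gene Magi1 fell 3.26-fold (−1.70 ± 0.42, adjusted p = 0.035) and the polarity gene Pard6g rose 3.53-fold (1.82 ± 0.46, adjusted p = 0.0405).

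From endodermal to thymic cells, 34 of the 48 were tested, 0 were called higher and 2 lower, beside 5.25% of all genes. Cldn9 was again among those lower (10.3-fold, log2 fold change −3.36 ± 0.87, adjusted p = 0.0476, edgeR). The median over the list was −0.13. In Krt5+Krt17+ cells 26 of the list were tested and edgeR called 0, with 1 at an unadjusted p under 0.05 and a median log2 fold change of 0.61.

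In parathyroid-like against thymic cells, 31 of the list were tested, 0 were called higher and 3 lower, beside 4.33% of all genes. Calls over all genes in this comparison fell when any plate was left out, and no such fit is given for these 3 genes. Amot, an angiomotin of the junction, was at 22.0, 120, 54.4 and 27.9 CPM in thymic cells and at most 0.948 CPM in parathyroid-like cells (adjusted p = 0.0347, edgeR). The polarity gene Pard6a was at 30.6, 22.3, 17.6 and 27.6 CPM in thymic cells and at most 0.503 CPM in parathyroid-like cells (adjusted p = 0.0373, edgeR). Pard3b had 0 reads in parathyroid-like cells and 2.27 to 9.37 CPM in thymic cells, at least 16.7-fold lower by the limit of 3 reads over the group (adjusted p = 0.0481, edgeR).

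Among 16 transcription factors and splicing regulators known to act on claudin genes, named here after their values were seen, Snai2 and Klf5 rose between the stages. Snai2, which encodes the repressor Slug, went from 17.5, 12.8, 20.3 and 15.5 CPM in endodermal cells to 184, 98.9, 58.2 and 49.4 CPM in thymic cells (5.59-fold, log2 fold change 2.48 ± 0.42, adjusted p = 0.00555, edgeR). Klf5 went from 31.7, 17.9, 16.6 and 11.1 CPM to 85.1, 59.2, 75.3 and 53.9 CPM (3.59-fold, 1.84 ± 0.36, adjusted p = 0.0128, edgeR). In both the ranges were apart. Of the 16, 11 were tested in this comparison and 2 called, beside 5.25% of all genes, with a median log2 fold change of 1.83, and in all cells, where 6.24% of all genes were called, 13 were tested, of which these 2 were called higher and Zeb2, at no more than 15.8 CPM in any plate, lower (adjusted p = 0.0403, edgeR).

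The same regulators gave 0 calls among 9 tested in Krt5+Krt17+ cells, beside 0.0106% of all genes, with a median of 0.23 and 1 at an unadjusted p under 0.05. In parathyroid-like cells 1 of 9 was called, beside 4.33% of all genes. This was Ovol1, a zinc finger factor of epithelia, which was at 18.2, 18.7, 45.5 and 35.8 CPM in thymic cells and at most 0.715 CPM in parathyroid-like cells (adjusted p = 0.0447, edgeR). No fit with a plate left out, where calls over all genes fell, is given for Ovol1. Against endodermal cells, parathyroid-like cells had 1 regulator called lower of 9 (Zeb1, with 0 reads in parathyroid-like cells, at least 10.3-fold lower, adjusted p = 0.0487, edgeR) and 1 of 31 other junction genes (Amot, adjusted p = 0.00981, edgeR), beside 5.13% of all genes.

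The remaining values concern members that few cells carried. Tjp1 had no molecule in the first run of the 92 cells of E10.5 plate d, although 13 of the 79 endodermal cells there had Tjp1 reads. Over all cells its reads came to 8.91 CPM in plate d and to between 37.3 and 52.3 CPM in the other E10.5 plates. In endodermal cells Tjp1 was found in 28 of 296 (9.46%), Cldn12 in 26 (8.78%), Ocln in 12 (4.05%) and Cldn1 in 6 (2.03%). In thymic cells these were 12 of 313 (3.83%), 9 (2.88%), 7 (2.24%) and 2 (0.639%). Without E10.5 plate c the endodermal shares were 6.14% for Tjp1, 2.63% for Cldn12 and 2.19% for Ocln, and without E12.5 plate d the thymic shares were 1.70% for Cldn12 and 0.424% for Cldn1. In neural-like cells a Cldn1 molecule was found in 0 of 60, which allows up to 5% of cells with a molecule at this depth, and 1 cell had a Cldn1 read.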

How the data were processed

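Whole transcriptome libraries of sorted single cells were analysed for 4 plates per stage. The authors demultiplexed and aligned the reads with the BD Precise WTA Analysis Pipeline 2.0 (STAR, and the union rules of HTSeq-count) to GRCm38.p6 with GENCODE vM18 per the file headers, while the submitters' notes name GRCm38.p5. They deposited raw read counts per gene and well, without normalization, and molecule counts adjusted by RSEC and DBEC for each of the 19 runs. Each value of the read table equalled the sum of 2 runs of a plate in all genes and wells, so the plate was the replicate. A molecule can be counted in each run, and shares of cells are given for the first run. Plate b at E12.5, with 1 run, entered only as an alternative. The labels call the method SmartSeq2, while the protocol describes barcoded plates.

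Wells were kept by the filters of the methods on protein-coding genes (at most 50% mitochondrial, 40000 to 400000 reads, 500 to 5000 features). Cells were sorted 1 per well, so no doublets were called. CPM is reads scaled to 1000000 on protein-coding genes. Reads summed per plate and class, with at least 3 cells per sum, were compared with edgeR 4.0.16 in R 4.3.3 (TMM, filterByExpr, robust quasi-likelihood fit, Benjamini-Hochberg adjustment over all genes tested, threshold 0.05). Standard errors were derived from each gene's fold change and F value. Alternatives were DESeq2 1.42.0, RLE factors, no filter on low counts, all genes, molecules, limma 3.58.1 on log2(mean CPM + 1), no upper cell filters, marker thresholds of 30 and 300 CPM, the plate as a block, and each plate left out. Between stages the block used only the letters found in both, so E10.5 plate b and E12.5 plate e were dropped from it. Scripts used Python 3.11.15, scipy 1.17.1, pandas 2.3.3, matplotlib 3.10.9 and numpy 2.4.6, and the fits were tested on simulated data.

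Residuals of plates that share a letter between stages had correlations of 0.059, −0.021 and 0.02, and the letter was therefore not taken as a pairing. Classes of a plate come from the same library and had correlations from 0.017 to 0.098, and the block was an alternative there. The members, the lists and the cell classes were chosen with earlier results of these data known. All 9 members are named in every comparison, with the called genes of the list of other tight junction genes and, for Cldn3 and Cldn4, the 5 genes of highest correlation over thymic cells. Reads are not independent molecules, so intervals and limits (3 counts of the total) cover counting error only. Some single-gene results are not reported here.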

Additional observations from a re-analysis of the deposited data

Results flagged for a closer look

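In groups of 4 plates, a plate was singled out where its gap to the nearest other plate, as a share of the range of the group, exceeded Dixon's 95% critical value. This held in 15 of 71 groups of a member and a class (21.1%). A chance rate of about 1 in 20 holds for normally distributed values, and these sums of sparse counts need not be normal. Where 3 plates were at 0, as for Cldn1 in other thymic cells, the ratio is 1 by construction. The share singled out was therefore not compared with that rate. Groups share cells (all cells, thymic cells and the classes within them), so the 15 are not independent.

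Among the abundant claudins, Cldn4 stood apart in endodermal cells of E10.5 plate a at 227 CPM, with the next plate at 114, and in thymic cells of E12.5 plate e at 166 CPM, with the next at 44.1. Cldn6 was low in E10.5 plate d, at 342 CPM in all cells and 384 CPM in endodermal cells, where the nearest plates had 492 and 572. F11r was high in Krt5+Krt17+ cells of plate e at 281 CPM, with the next plate at 65.8.

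The other cases are members that few cells carried. Cldn1 was high in E12.5 plate a, at 20.9 CPM in all cells, 23.8 in thymic and 26.8 in other thymic cells, which rests on 1 cell with 98.0% of the reads, and it was at 2.09 CPM in Krt5+Krt17+ cells of plate d and at 0.437 CPM in neural-like cells of E10.5 plate a, with 0 in the other plates of those 2 groups. Cldn12 was at 54.9 CPM in Krt5+Krt17+ cells of plate c, at 48.1 CPM in neural-like cells of E10.5 plate b and at 22.6 CPM in parathyroid-like cells of plate a. Ocln was at 3.3 CPM in neural-like cells of E10.5 plate b and at 66.5 CPM in parathyroid-like cells of E12.5 plate e.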

How the results depend on the processing

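Cldn3 and Cldn6 passed in 17 of 17 alternatives between the stages and in 18 of 18 between thymic and endodermal cells (log2 fold changes of Cldn3 from −2.49 to −1.96 and from −3.89 to −2.86, and of Cldn6 from −1.90 to −1.64 and from −2.47 to −2.08). No alternative called a member in Krt5+Krt17+ cells or between parathyroid-like and endodermal cells. Members called in thymic against endodermal cells were 2 in the main fit and 4 on molecules. In parathyroid-like against thymic cells they were 1 in the main fit, 2 with DESeq2, 4 on molecules, 3 with limma, 0 with no filter on low counts, 0 with the marker threshold at 30 CPM, and 0 to 0 with each plate left out. Of the fold changes of members, 618 kept direction and side of the threshold, 10 newly passed, 6 no longer passed and 31 reversed. With cells thinned, 49 shares left their counting interval and 95 did not, and 13 correlations moved by more than the SD over plates and 21 did not.

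Over all genes, the stage comparison called 718, with 1638 by DESeq2 and 215 with the plate letter as a replicate block. Between stages this block kept plates a, c and d only. Thymic against endodermal cells gave 586, with 1472 by DESeq2, 136 with the block, and from 380 to 655 with each plate left out (380 without E10.5 plate b and 385 without E10.5 plate c). Krt5+Krt17+ cells gave 1, with 571 by DESeq2, 2 with no filter, 12 on molecules, 338 with limma, 0 and 2 with markers at 30 and 300 CPM, and 0 to 1 with a plate left out (0 without plate a and without plate e). Parathyroid-like against thymic cells gave 428, with 1345 by DESeq2, 223 with RLE factors, 164 with no filter, 170 with the block, 900 with limma, 99 with markers at 30 CPM, and from 20 to 109 with a plate left out (20 without a, 42 without c, 28 without d and 109 without e). The cause of these shifts was not tested.

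With the replicate block, no call of a member changed. In comparisons of E12.5 with E10.5 cells the block used only plates a, c and d of each stage. There, effects of the block and of leaving out E10.5 plate b and E12.5 plate e cannot be told apart. Log2 fold changes that reversed with it were those of Cldn1 (−2.59 between the stages and −2.63 in thymic against endodermal cells), Ocln (−0.62 between the stages and −1.51 in parathyroid-like against endodermal cells), Cldn3 in Krt5+Krt17+ cells (−0.08) and Cldn4 in parathyroid-like against endodermal cells (−0.89). Between the stages, others that reversed were Cldn1 without E12.5 plate a (−4.43, and up to 2.05 without another plate), Cldn12 on molecules (−0.59) and without E12.5 plate d (−0.01, up to 1 without another), Ocln with limma (−0.03) and without E12.5 plate e (−0.63, up to 1.12), and F11r without E12.5 plate a (0.08, down to −0.42). In thymic against endodermal cells they were Cldn1 without E12.5 plate a (−4.48, up to 2.05), Cldn12 with limma (−0.07), and Ocln without E10.5 plates a (0.45) or c (0.15) or E12.5 plates c (0.27) or d (0.10), down to −0.86. In Krt5+Krt17+ cells they were Cldn3 with limma (−0.02), Cldn12 with DESeq2 (0.25), RLE factors (0.24), all genes (0.01) and without plate d (1.14, down to −2.76), and F11r without plate e (−0.29, up to 1.46). In parathyroid-like cells they were Tjp1 without plate c against thymic cells (0.41, down to −2.11) and, against endodermal cells, Cldn4 with limma (−0.19), at 30 CPM (−0.14) and without E12.5 plates d (−0.12) or e (−0.20, up to 0.55), Cldn12 without E10.5 plate c (0.13, down to −3.49) and Ocln without E12.5 plate e (−0.74, up to 2.86). None of these members was called in the comparison concerned. Depth limits the members that few cells carried and the shares of cells in E10.5 plate a and E12.5 plate c.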
